A study of Mus musculus with 16 samples.

Results

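Monocytes of the neonatal mouse spleen were sorted by their surface Nrp1, and 8 receptors that steer leukocyte migration were compared in RNA and chromatin between the Nrp1 high and the Nrp1 low fraction. These were the chemokine receptors Ccr1, Ccr2, Ccr7, Cx3cr1, Cxcr2, Cxcr3 and Cxcr4 and the oxysterol receptor Gpr183. The members were chosen by gene symbol, with RNA and chromatin results of Nrp1 high against low in these same libraries already known, so their values are given as a description, and where the fit over all genes called a member, the call is only counted and nothing is read from it. All 8 were among the 25562 genes of the RNA table and passed the filter on low counts, which left 15541 genes. Among the 40796 regions of the chromatin table, 41 carried the Ensembl identifier of a member. The cells were sorted from the spleens of 7-day-old wild-type C57BL/6 mice (C57BL/6J for RNA), for which the labels name no treatment, and Nrp1 encodes neuropilin-1, which binds semaphorins and VEGF on the cell surface. RNA-seq had 3 libraries of each fraction, from 80000 cells each, and ATAC-seq, which cuts accessible DNA with a transposase, had 5 of each fraction, from 50000 cells each. The sample labels give the cell type as myeloid-derived suppressor cells, and the protocol calls the cells monocytes. The sources used here name no sort marker besides Nrp1. The protocol mentions pooled RNA and does not say which libraries came from separate animals, so p-values here reflect spread among libraries that may be technical only. RNA libraries were made with a SMART-Seq kit for low input, and their descriptions name the Nrp1 low fraction negative and the Nrp1 high fraction positive.

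Chemokine receptors are G protein-coupled receptors that couple mainly to inhibitory G proteins and direct cells along gradients of secreted chemokines. Ccr2 serves the exit of classical monocytes from bone marrow, Cx3cr1 is highest on non-classical monocytes, Cxcr2 drives the mobilization of neutrophils, and Cxcr4 retains cells in marrow through its ligand Cxcl12. Ccr7 guides dendritic cells and T cells to lymphoid tissue, Cxcr3 marks activated T and NK cells, and Gpr183 positions B cells and dendritic cells in the spleen along gradients of oxidized cholesterol.

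RNA libraries held between 23395363 and 35127433 counts. The 10 genes listed as defining monocytes were all detected in both fractions. The 3 with the most counts were Lyz2, lysozyme, with a CPM (counts scaled to a common library size by TMM) of 36827 ± 8433 in Nrp1 low and 24567 ± 5225 in Nrp1 high (SD, n = 3), Ly6c2, the Ly6C antigen, at 2069 ± 503.1 and 2018 ± 252.1, and Fcgr3, an IgG receptor, at 739.1 ± 168.7 and 481.4 ± 86.6. By edgeR's quasi-likelihood test 0 of these 10 were called at an adjusted p under 0.05, 2 (Cd14 and Fcgr3, seen afterwards) had an unadjusted p under 0.05, and DESeq2 called 1 (Cd14) and limma-voom 0. Over all 15541 tested genes, 1744 had an unadjusted edgeR p under 0.05, 699 of them higher and 1045 lower in Nrp1 high. At an adjusted p under 0.05 edgeR called 106, DESeq2 403 and limma-voom 120. These are the counts to set beside those of the gene lists below. The sort marker Nrp1 had a mean of 39.8 ± 18.9 CPM in the low and 99.5 ± 10.98 CPM in the high libraries, without overlap (log2 1.32 ± 0.36, edgeR adjusted p = 0.259).

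The sequence just before the start site is shown for 3 receptors, chosen after their RNA and chromatin values were seen. Cxcr2, with the widest RNA difference, had no listed region over its start, and its sequence is not shown. Ccr2 and Gpr183 had an ATAC region over the start with an FDR under 0.05 in the authors' deposited table, and Cxcr4 had one just before its start with a fold close to 0 while its transcript level was higher in Nrp1 high. Each run gives the 250 bases before the transcript start, 5′ to 3′ on the gene's strand, from RefSeq (GRCm38.p6). For Ccr2 the start used there lies inside the outer bounds that RefSeq gives the gene, so its run falls within the gene interval printed with its levels. RefSeq promoters were matched for 7 of the 8 members, Ccr7 being the exception. Capitals mark matches to 5 short motifs searched on both strands. These were AGGAAG for ETS factors and PU.1, TTNNGNAA for C/EBP factors, CACCC for Kruppel-like factors, TGTGGT for RUNX factors and GGGCGG for the GC box, and no matches overlapped in these runs.
Ccr2, chr9:124101933-124102182, plus strand: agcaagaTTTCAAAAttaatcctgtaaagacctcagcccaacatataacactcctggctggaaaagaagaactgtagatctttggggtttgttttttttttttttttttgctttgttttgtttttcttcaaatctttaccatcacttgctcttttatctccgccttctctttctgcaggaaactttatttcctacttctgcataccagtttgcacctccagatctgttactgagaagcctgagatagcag
Gpr183, chr14:121965194-121965443, minus strand: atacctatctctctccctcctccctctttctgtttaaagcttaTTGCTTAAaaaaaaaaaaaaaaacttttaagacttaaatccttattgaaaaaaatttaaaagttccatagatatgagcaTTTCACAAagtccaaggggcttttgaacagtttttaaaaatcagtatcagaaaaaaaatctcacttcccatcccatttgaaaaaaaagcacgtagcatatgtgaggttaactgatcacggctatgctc
Cxcr4, chr1:128592300-128592549, minus strand: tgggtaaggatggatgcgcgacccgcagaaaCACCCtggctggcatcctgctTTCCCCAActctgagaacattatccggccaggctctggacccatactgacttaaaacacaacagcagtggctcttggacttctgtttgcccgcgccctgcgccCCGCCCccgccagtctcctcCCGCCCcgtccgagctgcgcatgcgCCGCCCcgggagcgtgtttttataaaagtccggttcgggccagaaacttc

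The ATAC regions at these starts covered 250, 248 and 238 of the 250 bases of Ccr2, Gpr183 and Cxcr4. GC made up 37.2% of the Ccr2 run, 32.0% of the Gpr183 run and 61.2% of the Cxcr4 run, against a median of 52.4% over 32851 mouse promoters of the same length. The GC box was matched 3 times before Cxcr4 and in no other of the 7 members searched, and in 32.7% of all promoters. C/EBP letters were matched once before Ccr2, in 2 places before Gpr183 and once before Cxcr4. They were found in 5 of 7 members and in 36.8% of all promoters. The CACCC box was matched in Cx3cr1, Cxcr2 and Cxcr4 (52.0% of all promoters), the RUNX letters in Ccr1, Cx3cr1 and Cxcr3 (14.0%), and AGGAAG in Cxcr2 and Cxcr3 (29.5%). The matches are letters only, and no binding was measured.

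**Figure D1:**
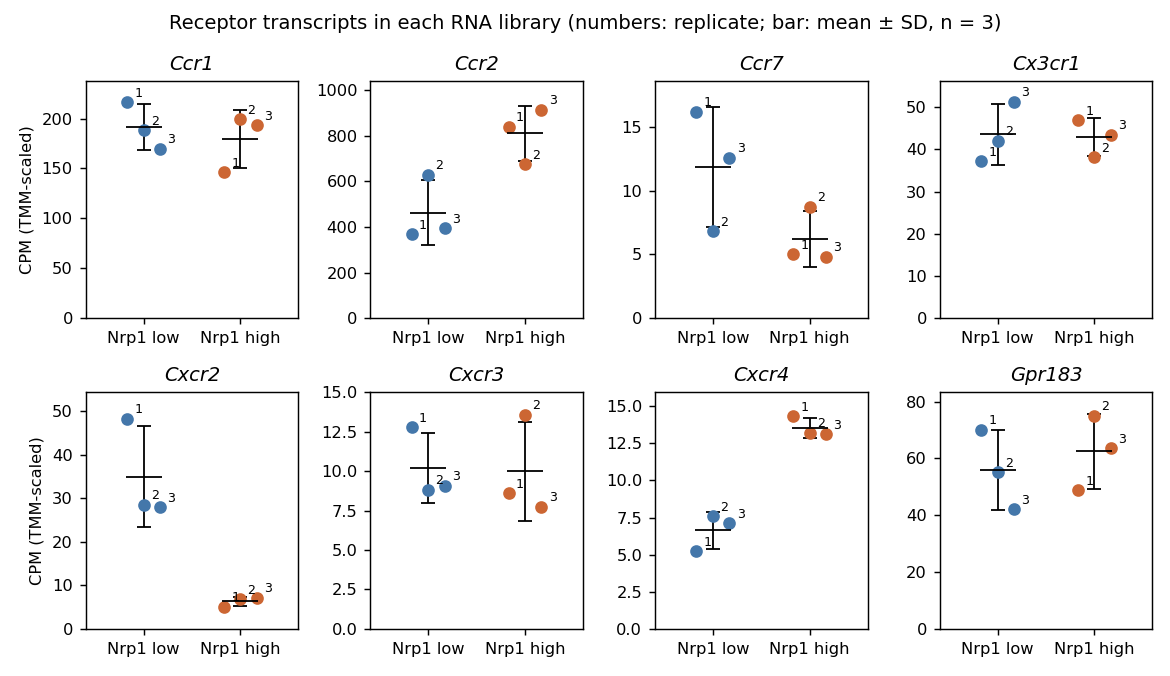
Level of each receptor transcript in every RNA library, in CPM on a linear axis from 0, with Nrp1 low in blue and Nrp1 high in orange; digits give the replicate, and the bar and whiskers the mean and SD over 3 libraries. Cxcr2 is lower, and Ccr2 and Cxcr4 higher, in all 3 Nrp1 high libraries than in any Nrp1 low library, and the fractions overlap in the other 5.

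Ccr2 transcripts were more abundant in every Nrp1 high library. Ccr2 (ENSMUSG00000049103, chromosome 9, 124101918 to 124109140), the receptor for Ccl2, stood at 368.0, 628.3 and 393.4 CPM in Nrp1 low replicates 1 to 3. It stood at 839.7, 675.5 and 914.4 CPM in Nrp1 high replicates 1 to 3. Every high library lay above every low library, the closest pair being low replicate 2 and high replicate 2. The means were 463.3 ± 143.5 and 809.8 ± 122.2 CPM, 1.75-fold higher in Nrp1 high, with a log2 difference of 0.81 ± 0.26 (SE).

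Ccr1 (ENSMUSG00000025804, chromosome 9, 123962126 to 123968692), a receptor for Ccl3 and Ccl5, did not separate the fractions. It stood at 216.5, 188.4 and 169.9 CPM in the low libraries and 146.3, 199.5 and 193.4 CPM in the high libraries. The fractions overlapped, with the lowest value in high replicate 1. The log2 difference was -0.09 ± 0.20. Because both genes were counted in the same library, the ratio of Ccr2 to Ccr1 does not depend on the scaling: it was 1.70, 3.33 and 2.32 in the low and 5.74, 3.39 and 4.73 in the high libraries.

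Cx3cr1 (ENSMUSG00000052336, chromosome 9, 120048683 to 120068296), the receptor of fractalkine, had the smallest log2 difference of the 8 in this fit. Its levels were 37.2, 42.1 and 51.3 CPM in Nrp1 low and 46.95, 38.1 and 43.5 CPM in Nrp1 high. The means were 43.5 ± 7.14 and 42.9 ± 4.46 CPM, and the log2 difference was -0.02 ± 0.22. The fractions overlapped, with both the lowest and the highest value in Nrp1 low. The gene model Gm33858 overlaps Cx3cr1, and without strand the reads of the 2 cannot be told apart. Markers of tissue macrophages, which also carry Cx3cr1 in some organs, all lay below 0 (10 of 10, summed level 504.7 to 598.0 CPM in Nrp1 low and 275.9 to 332.1 CPM in Nrp1 high), and their part in the Cx3cr1 value was not tested. By edgeR 0 of these 10 were called, 7 had an unadjusted p under 0.05, and DESeq2 called 4 and limma-voom 1. Those with the most counts were Adgre1, Slc40a1 and Vcam1.

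The widest gap was in Cxcr2 (ENSMUSG00000026180, chromosome 1, 74153994 to 74161246), the receptor of neutrophils for Cxcl1, Cxcl2 and related chemokines. It stood at 48.3, 28.6 and 27.97 CPM in Nrp1 low and at 5.11, 6.79 and 7.16 CPM in Nrp1 high. All 3 high libraries lay far below the lowest of the low libraries, and low replicate 1 stood above the other 2 of its fraction. The means were 34.9 ± 11.6 and 6.35 ± 1.09 CPM, 5.50-fold lower in Nrp1 high, with a log2 difference of -2.46 ± 0.32. The ratio of Ccr2 to Cxcr2 within a library ran from 7.62 to 22.0 in Nrp1 low and from 99.5 to 164.3 in Nrp1 high.

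Neutrophil markers moved with Cxcr2. All 13 listed markers were detected in both fractions, and none overlapped between them. This and the other gene lists were chosen with earlier results of these data known, so their counts are a description. Over all tested genes 10.8% did not overlap with Nrp1 high below low. The summed level of the 13 lay between 49166 and 80575 CPM in Nrp1 low and between 8688 and 11336 CPM in Nrp1 high. By edgeR 7 of 13 were called lower: S100a8 and S100a9, the calprotectin subunits, Ngp, Camp, Ltf, the granulocyte factor Cebpe and neutrophil elastase Elane. Over all tested genes 0.676% were called lower by edgeR, the share to set beside this and the other marker lists. S100a8, of highest mean CPM among the 13, fell from 24256 ± 7327 to 3636 ± 364.0 CPM (edgeR adjusted p = 0.0082). Ngp, of secondary granules, fell from 12327 ± 2955 to 1065 ± 305.6 CPM (edgeR adjusted p = 0.00416). With 1 library left out the calls among the 13 numbered 9 (low replicate 1), 8 (low replicate 2), 5 (low replicate 3), 4 (high replicate 1), 8 (high replicate 2) and 0 (high replicate 3). The Ly6g transcript, of the surface antigen of mature neutrophils and singled out afterwards, had means of 8.52 ± 1.26 and 4.26 ± 2.00 CPM. The part of these genes in the Cxcr2 result was not tested. In sorted bulk samples, fewer cells of a type and less RNA per cell cannot be told apart.

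Cxcr4 (ENSMUSG00000045382, chromosome 1, 128588199 to 128592299) went the other way. It stood at 5.25, 7.60 and 7.12 CPM in the low libraries and at 14.3, 13.2 and 13.1 CPM in the high libraries. The 3 high libraries were close together and all above the low ones. The means were 6.65 ± 1.24 and 13.6 ± 0.67 CPM, 2.04-fold higher, with a log2 difference of 1.03 ± 0.28. The ratio of Cxcr4 to Cxcr2 was 0.109, 0.266 and 0.254 in Nrp1 low and 2.81, 1.95 and 1.83 in Nrp1 high. Over the 6 libraries, log2 levels of these 2 receptors had a Pearson r of -0.995, a description over points that share their group and scaling. Cxcl12, the ligand of Cxcr4 and singled out afterwards, had 7 to 38 counts per library, a mean of 0.57 ± 0.29 CPM in low and 0.63 ± 0.53 in high.

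Neither Ccr7 nor Cxcr3 separated the fractions. Ccr7 (ENSMUSG00000037944, chromosome 11, 99144199 to 99155077) stood at 16.2, 6.81 and 12.6 CPM in Nrp1 low and at 5.01, 8.75 and 4.83 CPM in Nrp1 high. Low replicate 2 lay below high replicate 2, so the fractions overlapped. The log2 difference was -0.94 ± 0.41, and its coefficients of variation, 39.9% in low and 35.7% in high, were the largest of the 8 in each fraction. Cxcr3 (ENSMUSG00000050232, chromosome X, 101731535 to 101734147) stood at 12.8, 8.81 and 9.07 CPM in low and at 8.61, 13.6 and 7.74 CPM in high. Its means of 10.2 ± 2.22 and 9.98 ± 3.15 CPM overlapped, with a log2 difference of -0.04 ± 0.33. In each fraction 1 library set the top of its range, low replicate 1 and high replicate 2.

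Gpr183 (ENSMUSG00000051212, chromosome 14, 121952331 to 121965193) stood at 70.2, 55.2 and 42.2 CPM in Nrp1 low and at 48.8, 75.0 and 63.6 CPM in Nrp1 high. The fractions overlapped, with the lowest value in low replicate 3 and the highest in high replicate 2, and the log2 difference was 0.16 ± 0.26. Gpr183 lies inside introns of Ubac2, and strand was not stated, so reads of the 2 genes cannot be told apart where they overlap. Ubac2 stood at 69.4 ± 9.50 and 61.5 ± 2.49 CPM.

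Markers of the cells that carry these last receptors were also present. The 11 tested dendritic cell genes all had a log2 difference above 0 and 0 were called by edgeR, DESeq2 or limma-voom, with 5 at an unadjusted edgeR p under 0.05. Their summed level was 80.4 to 86.6 CPM in Nrp1 low and 104.9 to 126.2 CPM in Nrp1 high, those with the most counts being Bst2, Tcf4 and Clec10a. Among 12 T and NK cell genes 9 lay below 0 and 1, the cytotoxic granule gene Nkg7, was called lower (173.0 ± 29.5 to 49.7 ± 11.3 CPM, edgeR adjusted p = 0.0166), with sums of 199.2 to 272.3 and 75.8 to 130.3 CPM. The number called was 0 without low replicate 3, high replicate 1 or high replicate 3. B cell genes, led by Ighm, Igkc and Cd79b, summed to 938.9 to 1314 and 876.7 to 1053 CPM, with 0 of 8 called by edgeR, DESeq2 or limma-voom and 1 at an unadjusted edgeR p under 0.05 (Ebf1, singled out afterwards). No gene of these lists was at 0 in a whole fraction. Their part in the values of Ccr7, Cxcr3 and Gpr183 was not tested.

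**Figure D2:**
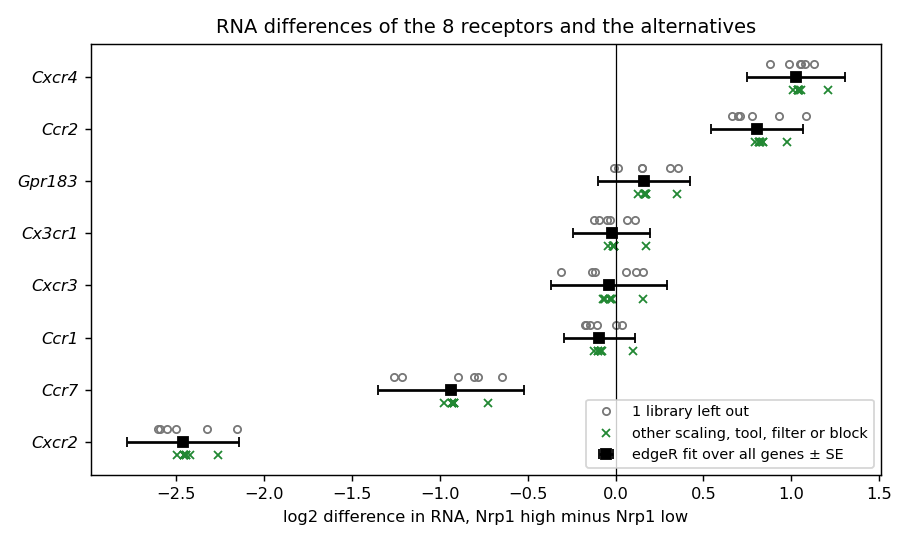
Log2 difference of each receptor in RNA, Nrp1 high minus Nrp1 low, with its SE from the edgeR fit over all genes (black squares), the values with 1 library left out (circles) and those under another scaling, tool, filter or the replicate block (crosses). Cxcr2 and Ccr7 stay below 0 and Ccr2 and Cxcr4 above it in all 14 alternatives, while Ccr1, Cx3cr1, Cxcr3 and Gpr183 cross 0 in at least 1.

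Counted together, 3 of the 8 members lay above 0 and 5 below, with a median log2 difference of -0.03, against 0.01 over all genes tested. Groups did not overlap in 2 members with Nrp1 high above low and in 1 with high below low. Over all tested genes these shares were 9.51% and 10.8%. In the edgeR fit over all genes 1 member, Cxcr2, was called at an adjusted p under 0.05, where 0.682% of genes were called and 0.676% called lower. Since the members were picked with this contrast known, nothing is read from these counts. The call of Cxcr2 was absent without low replicate 3, high replicate 1, high replicate 2 or high replicate 3, while its log2 difference in these 4 fits was -2.60, -2.32, -2.50 and -2.55.

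Genes with the most similar profiles over the 6 RNA libraries were sought among 8281 genes with a mean of at least 10 CPM, by Pearson's r of log2(CPM + 1). For Cxcr2 they were Alox5, the lipoxygenase of leukotriene synthesis (r = 0.998), Anxa3 (0.998) and Plscr1 (0.996). For Cxcr4 the first were Sulf2 and Ehd4 (both 0.989), and for Ccr2 they were Ccdc18, G2e3 and Cul4b (0.996, 0.992 and 0.991). Ccr7 was closest to Ninj1, Atp6v0b and Zfp688 (0.999, 0.999 and 0.997), and Ccr1 to Mcmbp, H2-T23 and Plekhb2 (0.997, 0.988 and 0.987). The closest genes were less alike for Cx3cr1 (among them Pstpip1 and Agfg2, 0.973 and 0.968), Gpr183 (Fam120b, Inpp4a and Ly86, 0.988, 0.985 and 0.976) and Cxcr3 (Gpat4, Pkig and Hspbp1, 0.978, 0.968 and 0.967). With 6 points that share 2 groups, such values describe these libraries only. Among the members themselves, Ccr2 and Cxcr4 had r = 0.902, Ccr2 and Ccr7 -0.966, and Cx3cr1 and Gpr183 -0.945. Nrp1 low replicate 1 and high replicate 2 had the highest level of their fraction for Ccr1, Ccr7, Cxcr3 and Gpr183. They had the lowest for Ccr2 and Cx3cr1, while Cxcr2 and Cxcr4 had neither extreme in high replicate 2. Over all tested genes, deviations from the fraction means correlated most between these libraries (Pearson r = 0.489). The part of this pattern in the correlations above was not tested.

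The other chemokine receptors were taken as a whole family by nomenclature, and none was called by edgeR, which called 0.682% of all tested genes. In a list this short a count of 0 is near that share, and nothing is read from it. Of 18 listed, 16 were in the table and 13 were tested, with 9 above 0 and 4 below and a median log2 difference of 0.23. Among those with the most counts were Ccrl2, a non-signalling receptor (13.8 ± 2.39 CPM in Nrp1 low, 10.7 ± 1.02 in Nrp1 high), and the eotaxin receptor Ccr3 (7.12 ± 2.20 and 3.82 ± 1.14). None of the 13 was called by edgeR over all genes, by DESeq2 or by limma-voom, and 1 had an unadjusted p under 0.05 by edgeR. Markers of basophils, mast cells and eosinophils, which carry Ccr3, summed to 83.6 to 128.0 CPM in Nrp1 low and 40.1 to 47.6 CPM in Nrp1 high. All 7 tested lay below 0, and 1, the histidine decarboxylase gene Hdc, was called lower (37.4 ± 7.81 to 9.33 ± 1.91 CPM, edgeR adjusted p = 0.0212), with 0 called without low replicate 3 or any 1 high replicate. Their part in the Ccr3 values was not tested.

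Of the ligands, Ppbp, a platelet chemokine that binds Cxcr2 in its processed form, fell from 15.3 ± 1.52 to 1.30 ± 0.54 CPM (log2 -3.56 ± 0.40, edgeR adjusted p = 0.00825), with all 3 high libraries below the low ones. Its call was absent, with 0 in its list, without low replicate 3 or high replicate 3. It was the 1 gene called among the 8 tested CXC, CX3C and XC chemokines. Pf4, also of platelets, stood at 19.0 ± 5.99 and 5.40 ± 2.36 CPM (adjusted p = 0.170) and Cxcl10, a ligand of Cxcr3, at 7.02 ± 1.98 and 7.25 ± 2.36 CPM. Platelet and megakaryocyte markers, which include Ppbp and Pf4, summed to 56.7 to 70.7 CPM in Nrp1 low and 10.6 to 17.5 CPM in Nrp1 high. All 8 lay below 0 and 3 were called lower, against 0.676% of all tested genes called lower. These 3 were Ppbp and the integrin and glycoprotein genes Itga2b and Gp5. The number called was 1 without low replicate 2, high replicate 1 or high replicate 2, and 0 without low replicate 3 or high replicate 3. The part of these genes in the Ppbp result was not tested. Among 10 tested CC chemokines 0 were called by edgeR, DESeq2 or limma-voom, and 1, Ccl6, had an unadjusted edgeR p under 0.05. Those with the most counts were Ccl6, at 710.8 ± 161.3 and 421.7 ± 33.4 CPM, and Ccl9, at 193.5 ± 21.5 and 210.1 ± 13.2 CPM, both ligands of Ccr1, and Ccl3, at 43.9 ± 11.0 and 44.4 ± 1.44 CPM.

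No gene of the lipid and signalling lists was called by edgeR, which called 0.682% of all tested genes, so a count of 0 is near that share. An unadjusted edgeR p under 0.05 was found for 1744 of the 15541 tested genes. In the oxysterol and sphingosine 1-phosphate list 12 genes were tested, 10 lay below 0, and 2 had an unadjusted p under 0.05, S1pr4 and S1pr5. S1pr4, a sphingosine 1-phosphate receptor of blood cells, stood at 132.8 ± 41.2 and 69.8 ± 27.9 CPM. S1pr5, which serves the egress of NK cells and patrolling monocytes and was singled out afterwards, stood at 23.3 ± 0.52 and 8.86 ± 1.31 CPM (log2 -1.39 ± 0.25, edgeR adjusted p = 0.0579) and was called lower by DESeq2 and limma-voom. Sgpl1 and Sphk2, the lyase and a kinase of that lipid, had log2 differences of 0.54 and -0.13. In the list of receptor coupling and desensitization 31 genes were tested, 21 lay above 0 and 10 below, and 0 were called by edgeR, DESeq2 or limma-voom. Unadjusted edgeR p-values were under 0.05 for 4, namely Rac2, Rgs18 and Rgs19, lower in Nrp1 high, and Grk5, higher, of which all but Rac2 were singled out afterwards. Rac2, a GTPase of migrating leukocytes, stood at 1617 ± 253.4 and 1022 ± 71.2 CPM, Coro1a, an actin regulator, at 3644 ± 441.7 and 3108 ± 392.9, and Gnai2, the main inhibitory G protein subunit of leukocytes, at 1038 ± 144.8 and 877.6 ± 115.3.

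**Figure D3:**
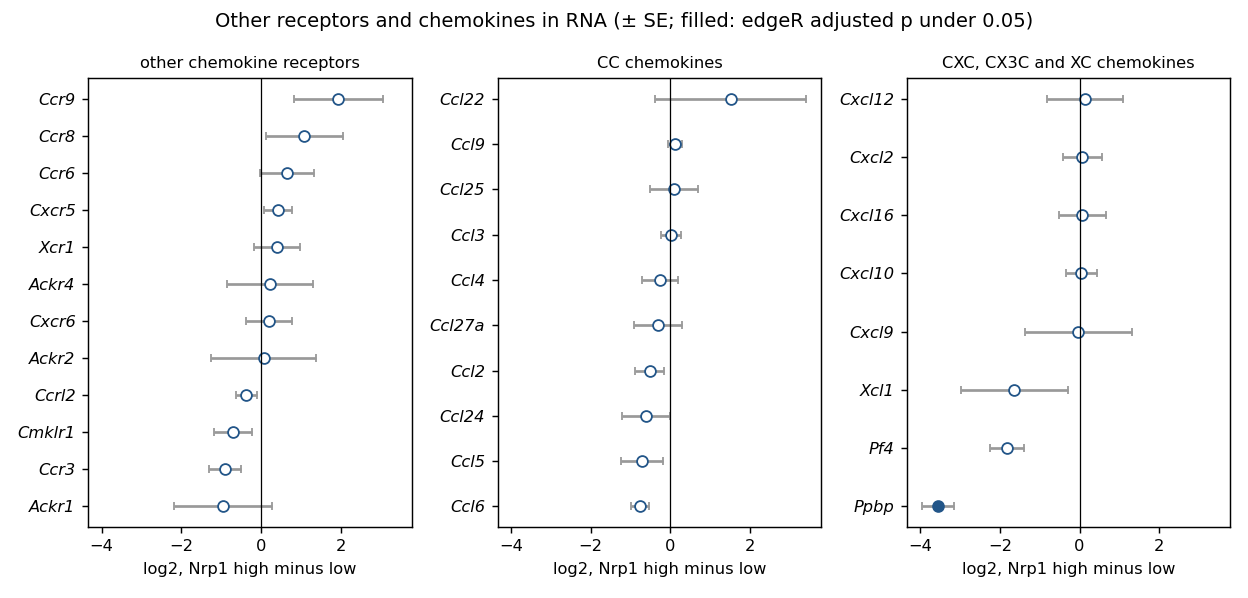
Log2 difference in RNA with its SE for tested genes of 3 families that are not members, other chemokine receptors (all but 1 of the 13), CC chemokines (10) and CXC, CX3C and XC chemokines (8); filled points have an edgeR adjusted p under 0.05. Ppbp is the only filled point.

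The chromatin table gives the authors' own comparison, with a log2 fold and an FDR for each region and no value per library. Its direction, high over low, rests on the name of the comparison in the labels and could not be settled from the data. Of 296 regions with an FDR under 0.05 whose gene had an unadjusted RNA p under 0.05, 35.1% had a fold of the same sign as the RNA difference. In the authors' deposited table the regions at the starts of Camp and S100a9, both called lower in RNA, had folds of 1.09 and 1.11, while the 3 regions within Nrp1 past the threshold had folds of 1.502, 1.474 and -0.39. Folds are therefore given with their deposited sign, and a negative fold means less accessible DNA in Nrp1 high only if the name of the comparison gives the direction.

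The 8 receptors had 41 regions, from 2 to 13 per gene, against a median of 1 per gene in the table. Ccr1 had 13, a number reached by 0.222% of the genes listed, Cxcr4 had 7, and Ccr2 and Gpr183 had 6 each. Distal intergenic regions made up 58.5% of the 41, against 24.3% of all regions, and promoter regions, within 3000 bases of a transcript start, 19.5% against 47.4%. Negative folds in the authors' deposited table were found in 29 of 41 member regions (70.7%) and in 61.5% of all regions, and the medians were -0.23 and -0.09. Of the 41, 7 had an FDR under 0.05 in the authors' deposited table, all with a negative fold. Of all its regions 7.55% passed that threshold and 4.99% did so with a negative fold. This contrast was known when the members were picked, and nothing is read from the count.

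**Figure D4:**
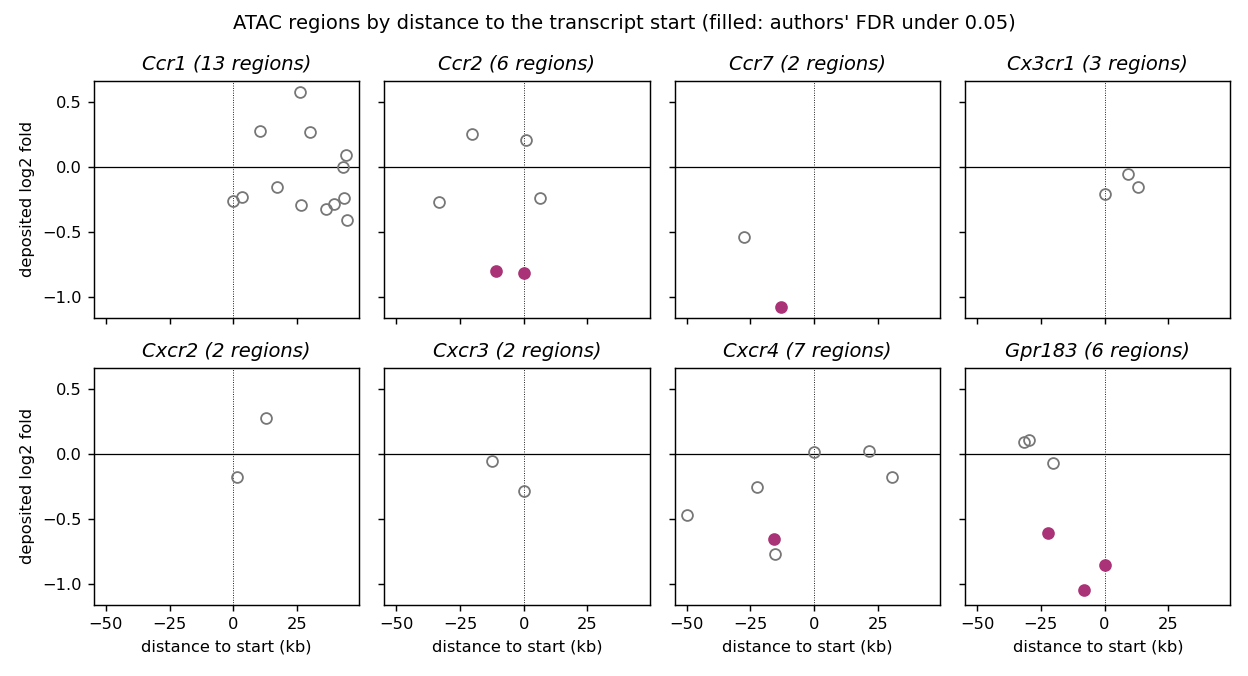
Deposited log2 fold of each ATAC region of the 8 receptors against its distance from the transcript start in kilobases (dotted line at 0; negative values lie before the start); filled points have an authors' FDR under 0.05. The 7 filled points belong to Ccr2, Ccr7, Cxcr4 and Gpr183 and all lie below 0, and no region of Ccr1, Cx3cr1, Cxcr2 or Cxcr3 is filled.

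Gpr183 had 3 of the 7. In the authors' deposited table the region over its start (chr14:121965042-121965441) had a fold of -0.85 (FDR 0.00826). Of 2 further regions in introns of Ubac2, the authors' deposited table gave -1.05 (FDR 0.00819) for the one 7906 bases before the start, in intron 4, and -0.61 (FDR 0.0239) for the one at 22081 bases, in intron 6. The other 3 Gpr183 regions, all in Ubac2, had folds between -0.07 and 0.11 in the authors' deposited table. Ccr2 had 2 past the threshold in the authors' deposited table, the region over its start (chr9:124101820-124102219) at -0.82 (FDR 0.0104) and a region 10995 bases before it at -0.80 (FDR 0.0329). A second promoter region, 1037 bases after the Ccr2 start, had a fold of 0.21 (FDR 0.559) in the authors' deposited table, so adjacent regions of this gene had folds of opposite sign.

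In the authors' deposited table Ccr7 had 2 regions, both distal, and the nearer, 12947 bases before the start, had the most negative fold of all 41, -1.08 (FDR 0.00799). Cxcr4 had 1 region past the threshold in the authors' deposited table, 15766 bases before the start (-0.66, FDR 0.0121). The authors' deposited table gave a fold of -0.77 (FDR 0.144) for its neighbour at 15219 bases, and 0.02 (FDR 0.936) for the region at the Cxcr4 start. Thus the only Cxcr4 region past the threshold lay far from the gene, and so did that of Ccr7.

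The other 4 receptors had no region past the threshold. The 13 regions of Ccr1 had folds from -0.41 to 0.58 and an FDR of 0.0733 or more in the authors' deposited table, with -0.26 over the start. Cx3cr1 had -0.21 (FDR 0.526) at its start and 2 regions in its first intron at -0.05 and -0.15 in the authors' deposited table. Cxcr3 had -0.28 (FDR 0.293) at its start in the authors' deposited table. Cxcr2, the member with the widest RNA difference, had in the authors' deposited table a region 1327 bases after its start with a fold of -0.18 (FDR 0.622) and a distal one with 0.28 (FDR 0.648). The listed regions of Cxcr2 include none over its start. For the 13 other chemokine receptor genes with regions, the authors' deposited table held 34, of which 1 passed the threshold, in Ccr9 (-0.42, FDR 0.04998).

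**Figure D5:**
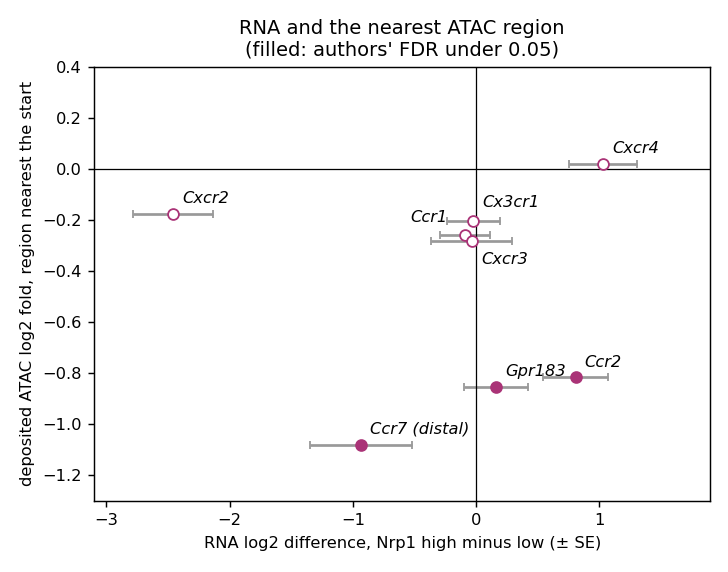
RNA log2 difference of each receptor with its SE (horizontal axis) against the deposited log2 fold of the ATAC region nearest to its start (vertical axis), filled where the authors' FDR is under 0.05; the nearest region of Ccr7 is distal. Cxcr2 lies far to the left with a fold of -0.18, and Ccr2 and Gpr183 lie low with RNA differences of 0.81 and 0.16.

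Set side by side, Ccr2 had a higher transcript level in Nrp1 high and a negative fold over its start, and Cxcr4 a higher level with a fold near 0 there. Gpr183 had 2 of the 3 most negative folds among the 41 regions, with RNA levels that overlapped. Cxcr2 had the widest RNA difference and no region past the threshold. Ccr7 had the most negative of the 41 folds, in a distal region, and an RNA difference below 0 with fractions that overlapped. Among promoter regions, 2 of the 8 of the members had an FDR under 0.05 in the authors' deposited table, both negative, against 4.07% of all promoter regions with a negative fold past it. If the deposited fold is low over high instead, each of these folds turns its sign, and the RNA values are not affected.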

How the data were processed

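RNA-seq was measured in 6 libraries (3 per fraction) and ATAC-seq in 10 (5 per fraction), grouped by the sample titles. The deposited RNA values are estimated counts per gene, whole numbers under gene names in the layout that StringTie's helper script writes, which estimates them from coverage. HISAT2 and StringTie (GRCm38) are named in the submitters' processing notes, without versions. Libraries were read in pairs of 150 bases, per the labels. For ATAC-seq the authors deposited the log2 fold, p-value and FDR of each region and no value per library. DiffBind, MACS2, BWA, Trimmomatic, Picard, edgeR, DESeq2 and ChIPseeker are named in the submitters' processing notes, with any read shift and the list of libraries entered not given in the sources used here. Labels name a DESeq2 table, and the deposited one is named for edgeR. The authors' distances to the transcript start and region widths, per the file headers, are in bases and are other values than measurements.

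Counts were filtered with filterByExpr, scaled by TMM and fitted by edgeR 4.0.16 (R 4.3.3; robust quasi-likelihood test with the fraction as the only term), with Benjamini-Hochberg adjustment over 15541 genes, called under 0.05. SE is the log2 difference divided by the root of F. Levels are TMM-scaled CPM. They are not per length, so genes were ordered by CPM only to choose which to name. Alternatives were other scalings, DESeq2 1.42.0, limma-voom (limma 3.58.1), other filters, the replicate block and leaving out each library. Members and gene lists were chosen with earlier results of these data known. Named genes are all members, called genes of the pathway lists, the 3 genes of highest mean CPM per list and the 3 most like each member. Others are marked as named after their values were seen. Promoters come from RefSeq (GRCm38.p6). Some genes that this rule names are not reported here.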

Additional observations from a re-analysis of the deposited data

How the results depend on the processing

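Of 15541 tested genes, 106 were called by edgeR, 403 by DESeq2 (77 of them higher) and 120 by limma-voom. The number called was 0 with the replicate block (943 at an unadjusted p under 0.05) and from 0 to 125 with 1 library left out. Among the 8 receptors the calls were 1 by edgeR, 2 by DESeq2 (Cxcr2 and Cxcr4), 0 with the replicate block (3 at an unadjusted p under 0.05) and 0 to 1 with 1 library left out. Among 74 tested genes of the other receptor, ligand, lipid and coupling lists they were 1 by edgeR (Ppbp), 3 by DESeq2 (Ppbp, Pf4 and S1pr5), 2 by limma-voom, 0 with the replicate block (5 at an unadjusted p under 0.05) and 0 to 1 with 1 library left out. Whether the replicate numbers pair the samples could not be settled. Same-numbered libraries had correlations of deviations from the fraction mean of -0.342, -0.394 and 0.032, and no library correlated best with its own number. Such deviations sum to 0 within a fraction and also carry other differences between libraries, so these values cannot exclude pairing. Of 112 values of single receptors under the 14 alternatives, 110 moved by less than the spread between libraries. The other 2 arose with library totals, which moved the median over all genes from 0.01 to 0.20: Cxcr4 at 1.21 and Cx3cr1 at 0.17. Ccr2 ranged from 0.66 to 1.09, Cxcr4 from 0.88 to 1.21, Ccr7 from -1.26 to -0.64 and Cxcr2 from -2.60 to -2.15. Ccr1, Cx3cr1, Cxcr3 and Gpr183 kept their sign in 11, 11, 10 and 13 of 14. For ATAC, 3 of the 7 member regions passed an FDR of 0.01 and 2 had an absolute log2 fold of at least 1. Of all regions, 2.51% had an FDR below 0.0104 in the authors' deposited table. The share of all regions past the fold rule was not computed, and nothing is read from these counts. The 2 promoter regions were the same count within 1000 bases. The cause of these changes was not tested. The depth of the ATAC libraries is unknown.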
